A study of Mus musculus with 6 samples.

Results

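The 10 genes described here mark the endothelium, the cell layer lining blood vessels, and were followed in the myocardium of mice given streptozotocin or vehicle. They were Pecam1, Cdh5, Vwf, Emcn, Eng, Tie1, Cd300lg, Fabp4, Aqp1 and Ly6c1, chosen by name as endothelial identity and capillary genes and matched to the Ensembl identifiers of the deposited tables. All 10 of the 10 names had an identifier among the 55401 genes of the complete tables. The libraries came from male wild-type (WT) mice, 3 libraries after injection of PBS and 3 after injection of STZ, all with a time label of 8 weeks. STZ (streptozotocin) kills pancreatic beta cells and is widely used to make mice diabetic, and PBS is the saline vehicle. The labels give no strain or age, do not say from which event the 8 weeks run, and leave unsaid whether each library is another animal. The p-values below therefore cover no more than library-to-library spread, possibly technical. The comparison addresses which genes differ in heart muscle between STZ and PBS injection.

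Endothelial cells line every capillary of the heart, which lie beside nearly every cardiac muscle cell and hand it oxygen and fatty acids. All endothelial cells share a core of adhesion and receptor genes, among them the junction proteins encoded by Pecam1 and Cdh5 and the receptor Tie1. Capillary endothelium of the heart adds genes for fatty acid transport, such as Fabp4, while larger vessels are richer in Vwf. In a bulk sample, fewer cells of a type and less RNA per cell cannot be told apart, and the same holds for more cells and more RNA per cell.

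Values are FPKM, which scales fragments by transcript length and by the library's mapped fragments, and summed to between 531384 and 589719 in the 5 complete libraries. The table of PBS replicate 3 lists 7711 of the 55401 genes (13.9%), and 5 of the 10 genes are among them (Pecam1, Vwf, Eng, Cd300lg and Aqp1). The test therefore used PBS replicates 1 and 2 and STZ replicates 1, 2 and 3, and PBS replicate 3 is given beside it as a value. Changes were tested with limma on log2(FPKM + 1), which understates the change of low genes, and p-values were adjusted by Benjamini-Hochberg across the 11556 genes with a test. "Rose" and "fell" are kept for an adjusted p under 0.05. The atrial markers Myl7, Sln, Myl4 and Nppa varied within both groups, with a summed level of 302 to 1328 FPKM in PBS and 961 to 3304 FPKM in STZ. The red cell markers stood apart in STZ replicate 2, at 960 FPKM in sum against 284 to 362 FPKM in the other 4 complete libraries.

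STZ hearts held more of the capillary genes Fabp4 and Cd300lg and of the surface protein gene Ly6c1 than PBS hearts, and less of the water channel gene Aqp1. None of the core identity genes passed: the mean difference was 33.1% for Pecam1, whose groups did not overlap, and lay between -7.8% and 21.4% for Cdh5, Emcn, Eng and Tie1. Of the 10 genes, all of them tested, 3 rose and 1 fell. Over all tested genes, 3.64% were called higher and 2.17% lower, 5.82% in either direction. The 10 genes had a median log2 change of 0.32, against 0.06 for all tested genes. Groups did not overlap for 7 of the 10 genes, 6 of them higher in STZ and 1 lower, where 47.4% of all tested genes had such groups (28.7% higher, 18.8% lower). Of all calls, 62.6% were higher on the FPKM scale. This share was 48.5% with libraries set to a common median, 50.2% with quantile normalization and 73.8% on a TPM scale, which moved the median change of all genes to 0.13. Each of the 10 genes kept its sign under these scalings.

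**Figure D1:**
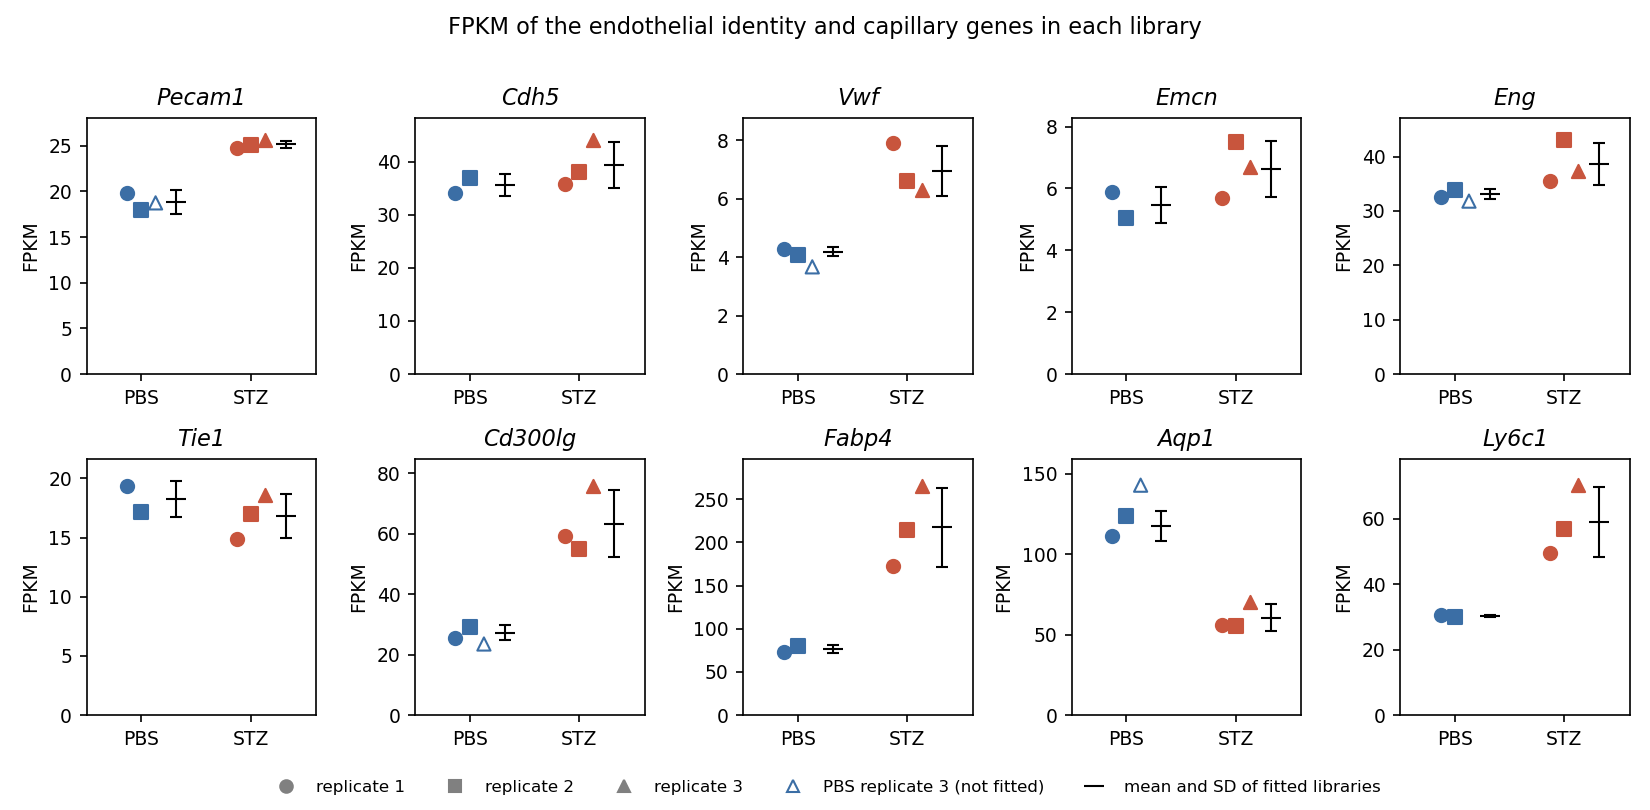
FPKM of each of the 10 genes (vertical axes, linear and starting at 0) in the PBS and STZ libraries, 1 point per library, with the open triangle for PBS replicate 3 and the bar for the mean and SD of the fitted libraries. The STZ points lie above all PBS points for Pecam1, Vwf, Eng, Cd300lg, Fabp4 and Ly6c1 and below them for Aqp1, and the groups overlap for Cdh5, Emcn and Tie1.

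The order of the levels differed between the groups. FPKM is a level per length, so genes can be set beside each other. In PBS hearts the order of the means ran from Aqp1 (118 FPKM) and Fabp4 (76.5 FPKM) through Cdh5, Eng, Ly6c1, Cd300lg, Pecam1 and Tie1 to Emcn (5.46 FPKM) and Vwf (4.19 FPKM). The fitted libraries of neighbours in this order overlapped only for Pecam1 and Tie1. In STZ hearts Fabp4 came first at 217 FPKM, followed by Cd300lg (63.3 FPKM), Aqp1 (60.5 FPKM) and Ly6c1 (58.9 FPKM), whose libraries overlapped. Cdh5 and Eng overlapped there too, as did Vwf and Emcn, the lowest pair.

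Fabp4 encodes the fatty acid binding protein of adipocytes and of capillary endothelium, which carries fatty acids within the cell (ENSMUSG00000062515, GRCm38 chromosome 3, 10204088 to 10208576, minus strand). It was at 73.1 and 80.0 FPKM in PBS replicates 1 and 2, and at 173, 214 and 265 FPKM in STZ replicates 1, 2 and 3. Every STZ library was more than 2-fold above both PBS libraries, and the STZ libraries were themselves spread widely. The means were 76.5 ± 4.84 FPKM (SD, n = 2) and 217 ± 46.0 FPKM (SD, n = 3), a 2.84-fold difference. The log2 change was 1.47 ± 0.19 (SE, limma adjusted p = 0.017), with a 95% interval of 1.01 to 1.94. Without PBS replicate 1 or PBS replicate 2 the change was 1.41 or 1.54 with limma adjusted p of 0.133 and 0.11.

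Fabp4 also marks fat cells, of whose 8 markers Adipoq, Plin1, Lep and Ucp1 were at or near 0. Adipoq, the adipocyte hormone adiponectin, was at 0.36 FPKM at most, Plin1, the coat of adipocyte lipid droplets, at 0.09 FPKM at most, and Lep and Ucp1 were listed at 0 in the 5 complete libraries. The 8 adipocyte markers summed to 2.96 and 5.32 FPKM in PBS and to 0.47 to 1.91 FPKM in STZ. STZ replicate 3, with the most Fabp4, had the least of them, with Adipoq and Cidec listed at 0. Of the 8, 1 reached the level for testing, with a log2 change of -1.1, and did not pass. It was lower in STZ without overlap, as 18.8% of all tested genes were, and had an unadjusted limma p under 0.05. The part of fat cells in the Fabp4 values was not tested. Of the other fatty acid binding proteins, the heart muscle form Fabp3 rose from 3136 and 3285 FPKM in PBS to 4272, 4481 and 4496 FPKM in STZ (log2 change 0.46, limma adjusted p = 0.044), although 19.6% of its exon bases overlap genes on the opposite strand. This call was lost with libraries set to a common median, in limma without a trend and without any 1 of the 5 libraries. Fabp5, which endothelium also uses, did not pass (log2 change 0.29, limma adjusted p = 0.211).

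Cd300lg encodes a mucin-like surface protein of capillary endothelium, a member of the Cd300 family of immune receptors (ENSMUSG00000017309, chromosome 11, 102041509 to 102055620, plus strand). It was at 25.5, 29.0 and 23.5 FPKM in PBS replicates 1, 2 and 3, and at 59.2, 55.0 and 75.9 FPKM in STZ replicates 1, 2 and 3. Every STZ library lay well above all 3 PBS libraries, and replicate 3 was the highest. The fitted means were 27.3 ± 2.47 FPKM (SD, n = 2) and 63.3 ± 11.1 FPKM (SD, n = 3), with a log2 change of 1.18 ± 0.17 (SE, limma adjusted p = 0.022) and a 95% interval of 0.76 to 1.59. With the value of PBS replicate 3 included the change was 1.24 (limma adjusted p = 0.00589). Without PBS replicate 1 or 2 it was 1.09 or 1.26 and did not pass (limma adjusted p = 0.168 and 0.128). Of the other 7 Cd300 genes, 1 reached the level for testing, Cd300ld, at 0.87 to 2.19 FPKM with groups that overlapped.

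Ly6c1 encodes a small protein anchored to the cell surface by a lipid, found on endothelium and on some fibroblasts and blood cells (ENSMUSG00000079018, chromosome 15, 75044018 to 75048830, minus strand). It stands beside a near copy, Ly6c2, which marks inflammatory monocytes. The first 120 coding bases of both genes are shown because reads from identical stretches can be assigned to either gene. They are from GENCODE M21 transcripts, 5′ to 3′, with the bases that differ between the copies in capitals:
Ly6c1: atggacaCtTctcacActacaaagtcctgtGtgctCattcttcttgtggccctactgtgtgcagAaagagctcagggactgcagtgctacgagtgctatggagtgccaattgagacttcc
Ly6c2: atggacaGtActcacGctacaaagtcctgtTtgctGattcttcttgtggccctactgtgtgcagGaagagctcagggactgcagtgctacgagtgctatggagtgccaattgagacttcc
These stretches differ at 6 of 120 bases, and the whole coding sequences at 9 of 396 (97.7% identity), with an identical run of 188 bases. Of the 795 windows of 50 bases in the Ly6c1 transcript, 36.7% also occur in a transcript of Ly6c2 or Ly6a. For the other 9 genes the share of such windows found in any other gene's transcript was between 0 and 0.149%. How the authors' counting assigned shared reads is not given in the sources used here, so the Ly6c1 level is uncertain to that extent.

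Ly6c1 was at 30.5 and 30.1 FPKM in PBS replicates 1 and 2, and at 49.5, 56.8 and 70.5 FPKM in STZ replicates 1, 2 and 3. All STZ libraries were above both PBS libraries. The means were 30.3 ± 0.269 FPKM (SD, n = 2) and 58.9 ± 10.6 FPKM (SD, n = 3), with a log2 change of 0.92 ± 0.17 (SE, limma adjusted p = 0.0369) and a 95% interval of 0.51 to 1.33. Ly6c2 was far lower, at 0.56 and 0.96 FPKM in PBS and at 1.19, 0.73 and 2.05 FPKM in STZ replicates 1, 2 and 3, and did not pass (limma adjusted p = 0.406). The monocyte receptor Ccr2 was at 0.22 and 0.25 FPKM in PBS and at 0.35 to 0.49 FPKM in STZ, below the level for testing. Of 9 monocyte and macrophage markers 7 were tested and 0 passed in limma. At an unadjusted limma p under 0.05, 1 of the 7 was higher and 2 were lower. Neither of the other tested Ly6 genes passed: the stem cell and endothelial antigen Ly6a had a log2 change of 0.41 (limma adjusted p = 0.33) and Ly6e one of 0.25 (limma adjusted p = 0.395). The Ly6c1 call was lost without PBS replicate 1 or 2 (limma adjusted p = 0.224 and 0.206) and without STZ replicate 2 (0.0714), where the change was 0.91 to 0.94.

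Aqp1 encodes the water channel of capillary endothelium, which is also abundant in red cells (ENSMUSG00000004655, chromosome 6, 55336432 to 55348555, plus strand). It was at 111, 124 and 143 FPKM in PBS replicates 1, 2 and 3, and at 56.1, 55.3 and 70.1 FPKM in STZ replicates 1, 2 and 3. The groups did not overlap, and the unfitted PBS library was the highest of all 6. The fitted means were 118 ± 9.04 FPKM (SD, n = 2) and 60.5 ± 8.31 FPKM (SD, n = 3), a fall by 48.5%. The log2 change was -0.95 ± 0.15 (SE, limma adjusted p = 0.0261), with a 95% interval of -1.32 to -0.59, and -1.05 with PBS replicate 3 included (limma adjusted p = 0.00924). The call was lost without any 1 of PBS replicates 1 and 2 (limma adjusted p = 0.156 and 0.189) or STZ replicates 1 and 2 (0.0575 and 0.0573), with changes from -1.03 to -0.88.

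In STZ replicate 2, where the red cell markers summed to 960 FPKM, Aqp1 was 55.3 FPKM. This was the lowest value of the 6 libraries and close to the 56.1 FPKM of STZ replicate 1. Haemoglobin and the other red cell markers were otherwise at 284 and 311 FPKM in PBS and at 330 and 362 FPKM in STZ. None of the 6 red cell markers tested passed in limma, and 0 had an unadjusted p under 0.05. The part of red cells in the Aqp1 values was not tested. Of the other aquaporins, the glycerol channel Aqp7 rose from 4.99 and 6.31 FPKM in PBS (6 FPKM in replicate 3) to 9.80, 15.0 and 14.0 FPKM in STZ (log2 change 1.05, limma adjusted p = 0.0414). Aqp8 fell from 3.78 and 3.20 FPKM in PBS to 0.51, 1.02 and 0.72 FPKM in STZ (log2 change -1.37, limma adjusted p = 0.0152). The other 9 aquaporin genes listed were below the level for testing. Both calls were lost without PBS replicate 1 or 2, and that of Aqp7 also without STZ replicate 2 or 3.

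The start regions of the 2 changed genes that have a window in the RefSeq table (GRCm38.p6) are shown because endothelial genes are commonly driven by ETS transcription factors, which bind around the bases AGGAAG. Each is the 250 bases before an annotated start, 5′ to 3′ on the gene's strand, with AGGAAG or its reverse complement CTTCCT in capitals, for Aqp1 at chr6:55336049-55336298 and for Ly6c1 at chr15:75048664-75048913:
Aqp1: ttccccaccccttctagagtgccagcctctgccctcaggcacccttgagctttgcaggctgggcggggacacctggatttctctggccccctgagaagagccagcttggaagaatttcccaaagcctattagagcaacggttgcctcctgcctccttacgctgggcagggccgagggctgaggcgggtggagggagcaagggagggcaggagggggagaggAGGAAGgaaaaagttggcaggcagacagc
Ly6c1: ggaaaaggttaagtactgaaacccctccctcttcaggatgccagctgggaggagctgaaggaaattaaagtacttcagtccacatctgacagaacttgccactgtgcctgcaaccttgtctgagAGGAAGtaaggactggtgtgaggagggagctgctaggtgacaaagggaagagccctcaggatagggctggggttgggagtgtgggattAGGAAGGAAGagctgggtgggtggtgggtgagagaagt
The Aqp1 window holds the letters 1 time and the Ly6c1 window 3 times, 2 of them overlapping. A second annotated Ly6c1 start, at chr15:75048838-75049087, holds none. Windows were found for 5 of the 10 genes (Aqp1, Emcn, Eng, Ly6c1 and Tie1), each with at least 1 match on either strand in at least 1 window. Of all 27025 genes with a window, 32.3% had a match. A match describes the letters and not a bound site, and genes that rose, fell or did not pass all held it.

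The genes of endothelial junctions and receptors did not pass the test. Pecam1, the adhesion molecule CD31 (ENSMUSG00000020717, chromosome 11, 106654217 to 106750628, minus strand), was at 19.8, 18.0 and 18.8 FPKM in PBS replicates 1, 2 and 3, and at 24.8, 25.1 and 25.6 FPKM in STZ replicates 1, 2 and 3. All STZ libraries were above all PBS libraries, and the STZ libraries differed little from each other. The difference of 33.1% did not pass (log2 change 0.40, 95% interval 0.12 to 0.68, limma adjusted p = 0.0962). With PBS replicate 3 included the change was 0.40 and passed (limma adjusted p = 0.0391). In the other 17 of 18 alternative settings Pecam1 did not pass.

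Cdh5 encodes VE-cadherin, the adhesion protein of endothelial junctions (ENSMUSG00000031871, chromosome 8, 104101625 to 104144511, plus strand). It was at 34.2 and 37.0 FPKM in PBS and at 35.8, 38.0 and 44.2 FPKM in STZ replicates 1, 2 and 3, and the groups overlapped. The log2 change was 0.14, with a 95% interval of -0.20 to 0.47 (limma adjusted p = 0.565). Tie1, an orphan receptor that works with the angiopoietin receptor (ENSMUSG00000033191, chromosome 4, 118471191 to 118490061, minus strand), was at 19.4 and 17.2 FPKM in PBS and at 14.9, 17.0 and 18.6 FPKM in STZ. It was the only one of the 10 besides Aqp1 with a negative sign, at -0.11 with a 95% interval of -0.46 to 0.23 (limma adjusted p = 0.645).

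Eng encodes endoglin, a co-receptor for TGF-beta and BMP9 ligands (ENSMUSG00000026814, chromosome 2, 32646595 to 32682669, plus strand). It was at 32.5, 33.8 and 31.8 FPKM in PBS replicates 1, 2 and 3 and at 35.6, 43.1 and 37.3 FPKM in STZ. The STZ libraries were higher without overlap, by a log2 change of 0.21 with a 95% interval of -0.11 to 0.53 (limma adjusted p = 0.356). Emcn, the surface mucin endomucin of capillaries and veins (ENSMUSG00000054690, chromosome 3, 137341067 to 137432185, plus strand), was at 5.87 and 5.05 FPKM in PBS and at 5.70, 7.51 and 6.68 FPKM in STZ, with a log2 change of 0.24 (95% interval -0.12 to 0.60, limma adjusted p = 0.356). A change of up to 0.60 in Emcn or 0.53 in Eng lies within these intervals, so an unchanged level is not shown.

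Vwf encodes von Willebrand factor, the clotting protein that endothelium stores and secretes and that is richest in veins and large vessels (ENSMUSG00000001930, chromosome 6, 125546774 to 125686679, plus strand). It was at 4.29, 4.08 and 3.67 FPKM in PBS replicates 1, 2 and 3 and at 7.91, 6.60 and 6.30 FPKM in STZ replicates 1, 2 and 3. The groups did not overlap, and the STZ mean was 65.8% above the PBS mean. The log2 change of 0.61 ± 0.14 (SE, 95% interval 0.28 to 0.94) just missed the threshold (limma adjusted p = 0.0548). It passed with PBS replicate 3 included (0.66, limma adjusted p = 0.0188), with genes of at least 5 FPKM (0.0495) and among nuclear protein-coding genes alone (0.044). In the other 15 of 18 alternative settings Vwf did not pass. Its change was 0.64 without PBS replicate 1 and 0.58 without PBS replicate 2. Platelets also carry Vwf, and of their 8 markers 2 were tested. Gp1ba, a receptor for von Willebrand factor, was at 0.49 and 0.67 FPKM in PBS and at 1.04, 1.06 and 0.74 FPKM in STZ, higher without overlap as Vwf was (log2 change 0.30, limma adjusted p = 0.276). Pf4 was at 13.7 and 10.9 FPKM in PBS and at 7.65 to 10.6 FPKM in STZ (log2 change -0.47, limma adjusted p = 0.172), while Ppbp, Itga2b, Gp1bb, Gp9, Gp6 and Treml1 were at 0.56 FPKM at most. The part of platelets in the Vwf values was not tested.

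**Figure D2:**
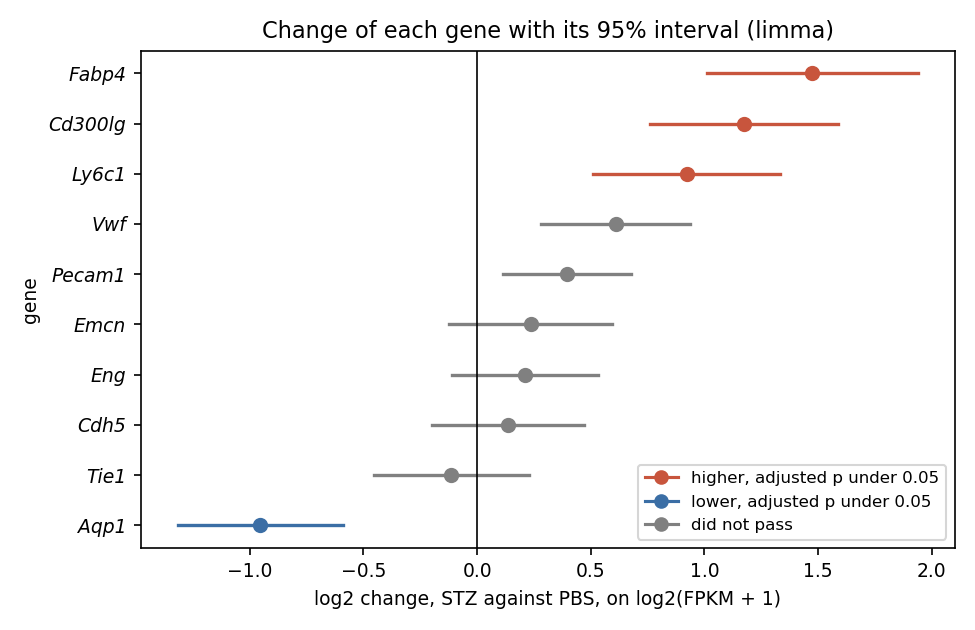
Change of each of the 10 genes between STZ and PBS hearts (points, log2 change on the horizontal axis) with its 95% interval from limma (lines), 1 row per gene. Fabp4, Cd300lg and Ly6c1 stand to the right of 0, Aqp1 to the left, Vwf and Pecam1 have intervals above 0 but did not pass after adjustment, and the intervals of Emcn, Eng, Cdh5 and Tie1 span 0.

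The changes were also expressed within each library, where the scaling of the library drops out. The geometric mean of Pecam1, Cdh5, Emcn, Eng and Tie1 was 19.0 and 18.1 FPKM in PBS and 19.3, 22.1 and 22.1 FPKM in STZ replicates 1, 2 and 3, a 1.14-fold difference of the group means. Divided by it, Fabp4 went from 4.13 ± 0.405 (SD, n = 2) to 10.2 ± 1.59 (SD, n = 3), a 2.48-fold difference. The ratio of Cd300lg went from 1.34 and 1.6 to 3.07, 2.49 and 3.44, that of Ly6c1 from 1.6 and 1.66 to 2.56, 2.57 and 3.19, and that of Aqp1 from 5.84 and 6.84 to 2.91, 2.50 and 3.18. Vwf, at 0.225 in both PBS libraries, was at 0.41, 0.299 and 0.285 in STZ. The groups did not overlap for any of the 5 ratios. In FPKM, too, the groups of these 5 genes did not overlap, and the divisor holds the 5 genes with the smallest changes. Separate ratios were thus nearly given in advance and are no further support. How many of all tested genes would have such ratios is not given. A two-sided exact permutation test gave p = 0.2 for each (0.2 after adjustment over the 5), which is the smallest p that 2 libraries against 3 can give. A ratio shows unequal change and not which of its parts changed.

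**Figure D3:**
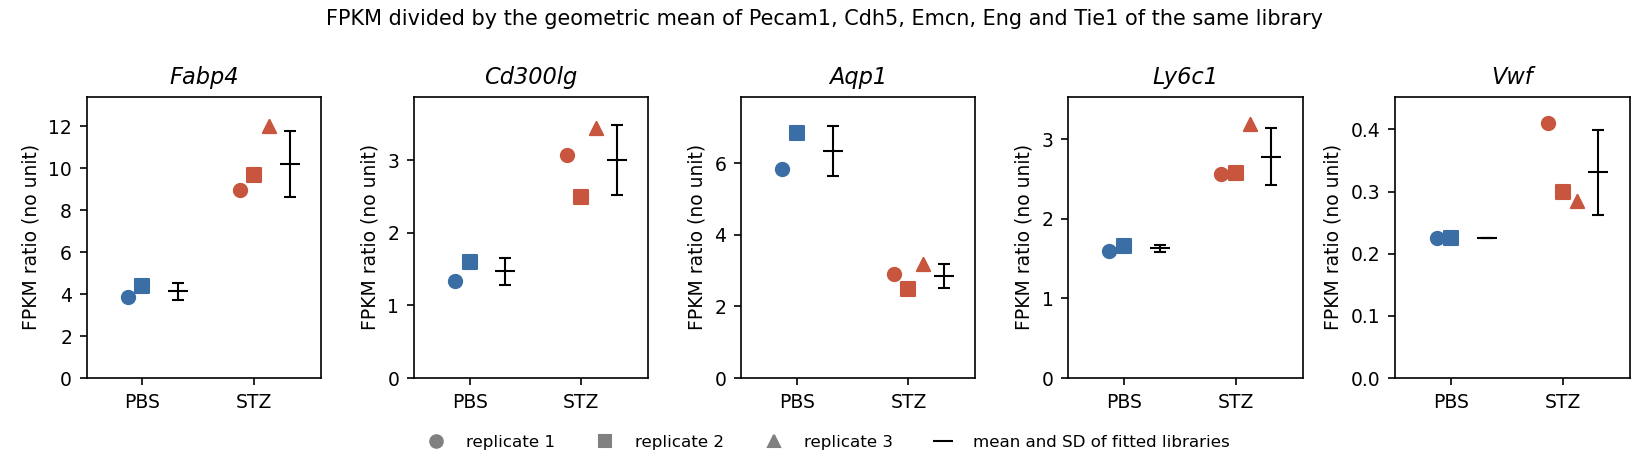
FPKM of Fabp4, Cd300lg, Aqp1, Ly6c1 and Vwf divided by the geometric mean of Pecam1, Cdh5, Emcn, Eng and Tie1 in the same library (vertical axes, no unit, starting at 0), 1 point per library with the mean and SD of each group. The STZ points lie above both PBS points for 4 genes and below them for Aqp1, where ratios of 5.84 and 6.84 stand against 2.50 to 3.18.

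Other endothelial genes were read from lists chosen by function. Of 28 further genes of the whole endothelium, 3 rose and 0 fell, with a median log2 change of 0.21. They were Adgrf5, an adhesion receptor of capillary endothelium (19.0 and 17.3 FPKM in PBS, 36.3, 37.6 and 42.2 FPKM in STZ, log2 change 1.05, limma adjusted p = 0.0148), the ETS transcription factor gene Fli1 (0.75, limma adjusted p = 0.0374) and the lectin Clec14a (0.67, limma adjusted p = 0.0461). The sialomucin Cd34 was lower in all STZ libraries (8.20 to 8.59 against 11.7 and 12.1 FPKM) and did not pass (-0.46, limma adjusted p = 0.0687). At an unadjusted p under 0.05 10 of the 28 were higher and 1 lower. Unadjusted p-values this low were common: Pecam1, with an unadjusted limma p of 0.0132, ranked 1583 by p among the 11556 tested genes. The share of all tested genes under 0.05 is not given. Unadjusted counts, here and for the lists below, therefore do not show that a list stands apart from all tested genes. Without any 1 of the STZ libraries 1 of the 28 rose, and with either PBS library left out 0 did.

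Of 16 tested capillary genes 4 rose and 0 fell. Their median log2 change was 0.62. Car4, a carbonic anhydrase on the capillary surface, was at 7.40, 7.31 and 7.80 FPKM in PBS replicates 1, 2 and 3 and at 18.6, 30.6 and 37.1 FPKM in STZ (log2 change 1.78, limma adjusted p = 0.0256). Rbp7, a retinol binding protein, went from 10.9 and 11.7 FPKM to 24.3, 53.6 and 43.3 FPKM (log2 change 1.68, limma adjusted p = 0.0383). Gpihbp1, which carries lipoprotein lipase to the capillary surface, went from 18.2 and 17.2 FPKM (22.2 FPKM in replicate 3) to 37.0, 41.3 and 52.7 FPKM (log2 change 1.24, limma adjusted p = 0.0196). Aqp7 was the other. At an unadjusted p under 0.05 8 of the 16 were higher and 0 lower. The count was 1 without STZ replicate 2, 2 without STZ replicate 3 and 0 without either PBS library.

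The arterial, venous, endocardial and flow-responsive lists each held 1 call, where 3.64% of all tested genes were called higher. STZ was higher without overlap for 5 of 10 tested arterial, 6 of 6 venous, 3 of 4 endocardial and 2 of 6 flow-responsive genes. The same held for 1 of 6 lymphatic and 5 of 6 endothelial activation genes, and for 28.7% of all tested genes. Median log2 changes were 0.33 for arterial, 0.56 for venous, 0.52 for endocardial and 0.24 for flow-responsive genes. At unadjusted p under 0.05, 3 of 10 arterial, 5 of 6 venous, 2 of 4 endocardial and 2 of 6 flow-responsive were higher. Of 10 tested arterial genes the semaphorin Sema3g rose (4.67 and 4.47 FPKM to 8.87, 13.9 and 12.4 FPKM, limma adjusted p = 0.0285), and of 6 venous genes Lrg1, a secreted protein, rose (20.5 and 19.6 FPKM to 40.4, 38.5 and 48.4 FPKM, limma adjusted p = 0.0183). Of 4 endocardial genes Tmem100 rose (5.63 and 4.06 FPKM to 12.6, 12.1 and 9.72 FPKM, limma adjusted p = 0.0266). None of 6 lymphatic genes passed in limma, where 1 had an unadjusted p under 0.05, and their median was -0.06. Of 9 endothelial activation genes, Lrg1 among them, 6 were tested, 2 rose and 0 fell, with a median log2 change of 0.575. In sum the 9 were at 32.95 and 31.37 FPKM in PBS and at 72.47 to 74.88 FPKM in STZ. At an unadjusted p under 0.05, 4 of the 6 were higher. The leukocyte adhesion genes Sele and Selp of this list were at 0.35 FPKM at most and were not tested. Of 6 flow-responsive genes the cyclooxygenase Ptgs1 rose (1.29 and 1.24 FPKM to 4.52, 2.99 and 3.86 FPKM, limma adjusted p = 0.0256). Without either PBS library 0 of the arterial, venous, endocardial and flow-responsive genes passed. The arterial call was also lost without STZ replicate 2 or 3, the endocardial one without STZ replicate 1 or 2 and the flow-responsive one without STZ replicate 3. None of the genes of these lists fell in limma, and 0 in each were lower at an unadjusted p under 0.05.

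**Figure D4:**
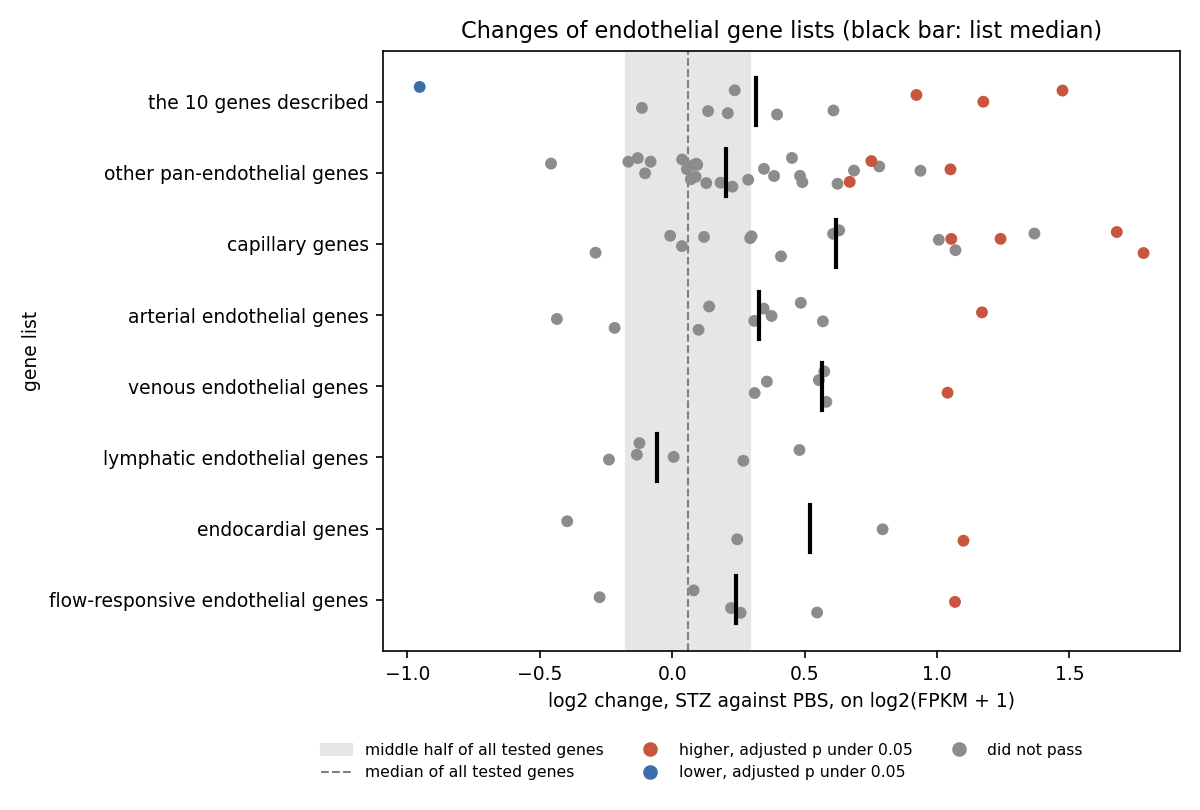
Log2 change between STZ and PBS hearts (horizontal axis) of every tested gene in 8 endothelial lists (rows), with the list median as a black bar, the median of all 11556 tested genes as a dashed line and their interquartile range in grey. The medians are 0.62 for the capillary, 0.56 for the venous and 0.52 for the endocardial list. The lymphatic list lies near 0, and Aqp1 is the single point called lower.

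Markers of other cells were read beside these results. The 8 cardiomyocyte markers summed to 13535 and 14332 FPKM in PBS and to 10611 to 12277 FPKM in STZ, where Actc1 fell and 0 rose. Their median log2 change was -0.15, and it was 0.09 with quantile normalization, where 0 were lower. The Actc1 call was also lost without STZ replicate 2 or 3 and without either PBS library. The 10 fibroblast markers summed to 440 and 473 FPKM in PBS and to 442 to 495 FPKM in STZ. Dpep1 rose among them and Col3a1, Col1a1, Pi16 and Col1a2 fell, and 1 or 2 of the 10 were lower, with 0 higher, without PBS replicate 1 or 2. The 9 mural cell markers summed to 206 and 222 FPKM in PBS and to 170 to 218 FPKM in STZ, and Acta2 fell, a call lost without STZ replicate 1 or 2 and without either PBS library. The 9 monocyte and macrophage markers summed to 62.3 and 69.8 FPKM in PBS and to 51.4 to 71.4 FPKM in STZ. Of the 7 tested 0 passed in limma, with 1 higher and 2 lower at an unadjusted p under 0.05. The part of these cells in the results above was not tested.

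The genes whose profile over the 5 complete libraries was nearest to each changed gene were taken by the root mean square distance of centred log2(FPKM + 1) values, outside the lists. For Fabp4 they were H2-Q6, one of a family of near-identical class I antigen genes whose level is therefore uncertain (distance 0.124), the peptide transporter Slc15a2 (0.127) and the iron-binding lipocalin Lcn2 (0.137). For Cd300lg they were the folate enzyme Mthfd2 (0.0754), the lectin Clec1a (0.082) and the actin regulator Inf2 (0.0891). For Ly6c1 they were the membrane protein gene Plp2 (0.0495), the lipoxygenase Alox12 (0.0653) and the splicing factor Luc7l2 (0.0659). For Aqp1 they were the semaphorin receptor Plxnd1 (0.0724), the phosphatase Lhpp (0.0728) and the muscle ribosomal protein Rpl3l (0.0753). Plxnd1, for example, was at 18.8 and 20.96 FPKM in PBS and at 8.81, 9.96 and 10.9 FPKM in STZ. Several neighbours were low in PBS, where log2(FPKM + 1) understates the fold, so a small distance does not mean an equal fold. Slc15a2 was at 0.04 and 0.02 FPKM in PBS and at 1.35, 2.48 and 2.45 FPKM in STZ. Lcn2 was at 0.56 and 0.63 FPKM in PBS and at 2.73, 4.63 and 4.48 FPKM in STZ. Mthfd2 was at 0.56 and 0.51 FPKM in PBS and at 2.40, 2.03 and 3.13 FPKM in STZ. The profiles rest on the same 5 libraries as the test.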

How the data were processed

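RNA from the myocardium was poly(A)-selected, with dUTP in the second strand, per the labels' protocols. The authors deposited FPKM per gene, named so in the file headers. The submitters' processing notes name cutadapt 1.9, HISAT2 2.0.4, StringTie 1.3.4d and GRCm38. No source used here names the annotation release, strand setting or filters. FPKM does not state depth, so no counting interval is given. Identifiers were matched to GENCODE M21 (GRCm38).

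Tests covered genes reaching 1 FPKM in 2 or more fitted libraries, on log2(FPKM + 1) with limma 3.58.1 in R 4.3.3 (eBayes with trend, two-sided, no covariate). A library listing under 50% of genes was not fitted. On simulated data over 11556 genes the test recovered 47% of 100 genes changed by 1 and 88% of 100 changed by 2 (log2), with 2.9% false calls. The changed genes were drawn from those with a mean log2(FPKM + 1) above 2, and the noise was independent between genes and libraries. These rates therefore do not cover lower genes or noise shared within a library. The genes and 22 lists were chosen with earlier results of these data known. Named genes are the 10, up to 4 of smallest p per list, and 3 nearest profiles per changed gene. From the lists of cell type markers, further genes, some of them untested, are named with their values. Sele and Selp were named after their values were seen. Ratios used scipy 1.17.1. One item is not reported here.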

Additional observations from a re-analysis of the deposited data

How the results depend on the processing

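Under 18 alternatives, 17 planned and 1 chosen after seeing the data (nuclear protein-coding genes alone), 0 of the 10 genes changed sign. When genes of any level were tested, 81 of 26229 passed and 0 of the 10 did (0 higher, 0 lower, although 5 and 1 had an unadjusted limma p under 0.05), as did 1 of the other pan-endothelial and 0 of the capillary genes. With PBS replicate 3 added, 1169 genes passed, 5 of the 10 were higher, and 6 pan-endothelial and 7 capillary genes rose. Leaving out 1 library gave 24 to 398 genes in all, 0 to 3 of the 10 higher, 0 to 1 lower, 0 to 1 pan-endothelial and 0 to 5 capillary genes higher. The lowest counts came without PBS replicate 1 or 2, where the lone PBS library is assumed to vary like the STZ group.

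With the replicate number as a block, 64 genes passed, 1 of the 10 higher (Fabp4) and 0 lower, and 0 pan-endothelial and 0 capillary genes. This fit gives STZ replicate 3 no partner and so drops it from the contrast. Over 4824 genes listed in all 6 files, deviations from the group means correlated at 0.18, -0.05 and 0.15 for numbers 1, 2 and 3. Unlike numbers gave -0.23 to 0.09. Deviations within a group of 3 depend on each other, so these values cannot decide whether the numbers pair the samples. Depth is unknown, so precision at low FPKM (Vwf, Emcn) cannot be given.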
